A study of Mus musculus with 37 samples.

Results

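The p53 transcription factor gene Trp53 and 9 genes that p53 is known to switch on (Cdkn1a, Mdm2, Ccng1, Phlda3, Eda2r, Bbc3, Sesn2, Aen and Zmat3) were followed through 37 RNA sequencing libraries of mouse ureter and bladder. These 10 genes were taken by symbol from a table of 24421 genes, and all 10 passed the filter on low counts in every comparison. All mice were wild-type BALB/c females. The libraries form 5 groups: the cancer side of the upper urinary tract (UT, 11 libraries from 10 mice) and the side without microscopic cancer (UN, 7 libraries from 7 of those mice), the bladder of the same treated mice (BBN bladder, 10 libraries), and the ureter (U, 6 libraries, both sides of 3 mice) and bladder (untreated bladder, 3 libraries from those 3 mice) of controls on tap water. Treated mice drank BBN (N-butyl-N-(4-hydroxybutyl)nitrosamine, a bladder carcinogen) at 0.05% for 18 weeks per the labels, from 6 to 7 weeks of age. UN is therefore tissue of a treated, tumor-bearing animal and not a healthy control, and the 2 U libraries of a mouse are not separate animals.

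p53 is kept low in unstressed cells because MDM2 tags it for degradation, and it builds up as a protein when DNA is damaged. It then binds pairs of short DNA motifs, called half-sites, and raises the transcription of genes for cell cycle arrest, apoptosis and repair. The counts show RNA of these genes only: p53 protein and Trp53 mutations were not analysed here.

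Promoter windows (250 bases before to 50 after a start site, RefSeq, GRCm38.p6) were found for 9 of the 10 genes, 13 windows in all, with none for Zmat3. A p53 half-site was taken as an exact match to RRRCWWGYYY (R is A or G, W is A or T, Y is C or T), a pattern that reads alike on both strands. It was present in windows of 5 genes (Cdkn1a, Mdm2, Ccng1, Trp53 and Aen), against 9.55% of all genes and 8.36% of all windows. Only 24 of 32851 windows (0.0731%) held 2 half-sites with at most 13 bases between them, and 1 window of Cdkn1a was among them. Whether such sites go with the changes in RNA below was not tested. In that window the half-sites start 73 and 51 bases upstream of the start and are 12 bases apart. The other window of Cdkn1a, at a later start site (chr17:29093519-29093818), held no half-site. The 240 bases upstream (chr17:29090734-29090973, plus strand) are shown first because of that pair, and 30 bases around the single sites of the other 4 genes follow for comparison. Only exact matches to the half-site pattern are in capitals, and stretches that miss it by 1 base are not marked.
Cdkn1a: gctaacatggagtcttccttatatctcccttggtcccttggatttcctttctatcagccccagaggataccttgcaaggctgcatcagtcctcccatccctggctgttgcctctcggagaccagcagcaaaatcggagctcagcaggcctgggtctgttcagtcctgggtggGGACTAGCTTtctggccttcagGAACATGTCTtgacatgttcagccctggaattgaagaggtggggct
Mdm2 (chr10:117710925-117710954, minus strand, upstream): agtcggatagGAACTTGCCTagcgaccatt
Ccng1 (chr11:40755452-40755481, minus strand, upstream): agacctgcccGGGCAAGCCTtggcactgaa
Trp53 (chr11:69580274-69580303, plus strand, upstream, within an exon of Wrap53): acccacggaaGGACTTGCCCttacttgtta
Aen (chr7:78895927-78895956, plus strand, within its annotated exon): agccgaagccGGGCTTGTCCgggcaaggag
No half-site was found in the windows of Eda2r, Phlda3, Bbc3 and Sesn2. These are matches of letters in a short window, and binding was not measured. In GRCm38 the genes themselves lie at chr17:29090976-29100727 (Cdkn1a, plus strand), chrX:97333840-97377216 (Eda2r, minus strand) and chr11:69580359-69591873 (Trp53, plus strand), to name the 3 that the results below turn on. An unnamed transcript on the opposite strand overlaps a Cdkn1a exon, and since the libraries keep no strand, its reads cannot be told from those of Cdkn1a.

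Library totals ran from 3557697 to 18793560 counts. Levels are given as CPM, a gene's counts divided by its library's total and scaled alike in all libraries, which compare 1 gene between libraries but not genes of different length. The 4 shallowest libraries, with at most 7820510 counts each, were UN 6 and BBN bladders 1, 3 and 4, and these were also the 4 with the lowest RNA integrity in the study's records. Their values are therefore given separately where they matter. The tissue make-up also moved with the groups. The 12 markers of urothelium, the lining of ureter and bladder, summed to 1533–2980 CPM in U, 39.6–15039 in UN, 1383–14432 in UT, 1542–19758 in BBN bladder and 21078–21817 in untreated bladder, and none was at 0 throughout a group. UN 2 was the library at 39.6 CPM, so its labelled tissue was almost without urothelium markers. In whole tissue, more cells of a type and more RNA per cell cannot be told apart, and the part of tissue make-up in the results below was not tested. A gene was called changed at a false discovery rate (FDR) under 0.1 and at least 2-fold in edgeR's quasi-likelihood test, adjusted over all genes tested. UN and UT were both compared with the same 6 U libraries.

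**Figure D1:**
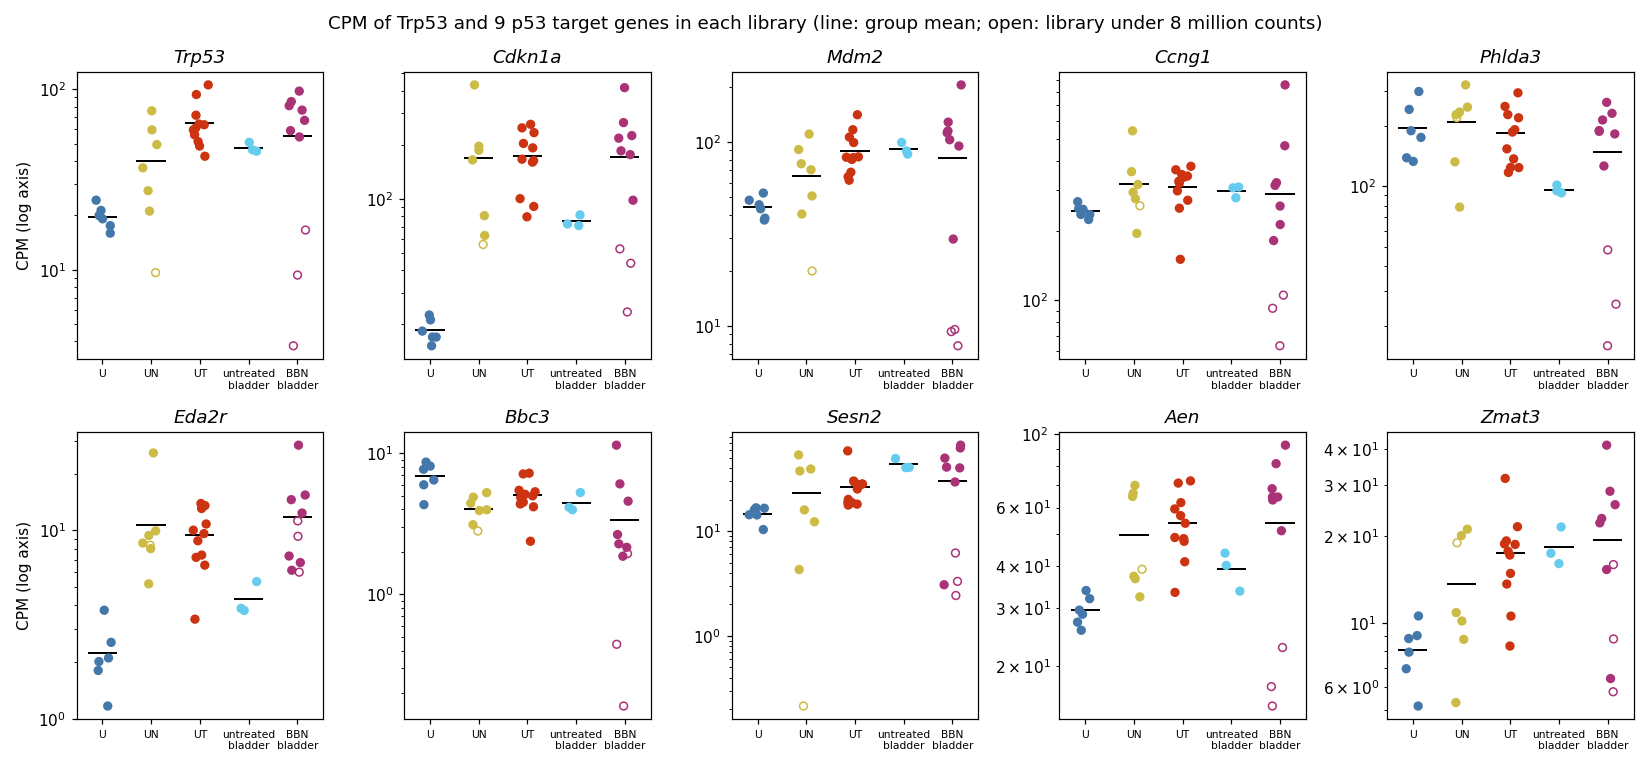
CPM (log axis) of Trp53 and 9 target genes in the 37 libraries, with a black line at each group mean and open points for the 4 shallowest libraries. Cdkn1a lies at 15.2–22.5 CPM in the 6 U libraries and at 55.6 CPM or more in every UN and UT library.

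The first question was which of the 10 genes differed between treated ureter without visible cancer and untreated ureter. Cdkn1a and Eda2r rose in UN, 2 of 10, where 10.5% of the 14880 genes tested were called higher and 2.54% lower. The median log2 fold change of the 10 genes was 0.55, against 0.08 over all genes tested. Cdkn1a encodes p21, the inhibitor of cyclin-dependent kinases through which p53 halts the cell cycle. It measured 15.2, 17.6 and 22.5 CPM (lowest, median, highest) in U and 55.6, 165 and 431 CPM in UN. All 7 UN libraries lay above all 6 U libraries, as 2.08% of 14737 genes did (1.36% lay below), with UN 1 the highest and UN 6 the lowest. The log2 fold change was 2.99 ± 0.34 (SE), or 7.97-fold (edgeR FDR = 0.00134). Eda2r encodes a receptor of the TNF receptor superfamily that binds ectodysplasin A2. It measured 1.17, 2.06 and 3.78 CPM in U and 5.21, 8.57 and 25.8 CPM in UN, again without overlap. Its log2 fold change was 2.17 ± 0.34 (4.49-fold, edgeR FDR = 0.00435). Without UN 2, the library nearly free of urothelium markers, both calls remained at log2 fold changes of 3.12 for Cdkn1a and 2.26 for Eda2r. With the 2 sides of each control mouse summed to 1 value, which leaves 3 controls, both were lost (edgeR FDR = 0.167 and 0.205) while the fold changes were 2.98 and 2.17, and only 4 genes of the table were called. limma's voom with a variance per group, on the same values, called both (adjusted p = 0.00194 and 0.0036) and 2358 genes of the table.

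A further 3 genes passed the FDR in UN but stayed under 2-fold, where 13.3% of all genes were higher and 5.67% lower at that FDR with no minimum fold. Trp53 itself was at 15.9, 19.5 and 24.3 CPM in U and at 9.63, 36.7 and 75.9 CPM in UN (log2 fold change 0.85 ± 0.27, edgeR FDR = 0.0535). In 5 UN libraries it lay above all U libraries, and in UN 6, one of the shallow libraries, below them. Aen, a nuclease gene that takes part in apoptosis, was 1.60-fold higher (edgeR FDR = 0.0379), with 6 of 7 UN libraries above all of U. Bbc3, which encodes the apoptosis inducer PUMA, was lower, from a median of 7.08 CPM in U to 3.98 CPM in UN (log2 fold change -0.82 ± 0.24, edgeR FDR = 0.0427). It was the only one of the 10 genes with a negative log2 fold change here. On library totals alone, which moved the median gene from 0.08 to 0.16, Trp53 also reached 2-fold (log2 fold change 1.03, edgeR FDR = 0.0817), so that 3 of the 10 genes were called. In that fit 1685 of all 14880 genes were called higher and 345 lower. With 1 value per mouse none of the 3 passed in edgeR (FDR = 0.354 for Trp53, 0.299 for Aen and 0.287 for Bbc3). The other 5 genes did not pass, with log2 fold changes from 0.14 for Phlda3 to 0.72 for Zmat3 and edgeR FDR from 0.154 to 0.830. Among them, Sesn2, a stress-response gene that restrains the growth kinase complex mTORC1, ranged from 0.214 CPM in UN 6 to 53.5 CPM in UN 1, a spread much wider than its 10.4–16.7 CPM in U. Mdm2, the gene of the ubiquitin ligase that limits p53, measured 37.6–52.8 CPM in U and 19.9–110 CPM in UN. Its lowest value was that of the shallow UN 6, without which Mdm2 passed the FDR under 2-fold (log2 fold change 0.52, edgeR FDR = 0.0351).

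On the cancer side, Cdkn1a, Eda2r and Trp53 rose against U, 3 of 10, where 18.7% of 15357 genes were called higher and 12.5% lower. The median log2 fold change of the 10 genes was 0.66, against 0.11 over all genes. Trp53 measured 42.5, 60.9 and 106 CPM in UT. All 11 UT libraries lay above all 6 U libraries, as 15.5% of 14894 genes did (4.46% lay below), and the log2 fold change was 1.44 ± 0.18 (2.72-fold, edgeR FDR = 2e-05). Cdkn1a measured 79.3, 166 and 260 CPM in UT (log2 fold change 2.95 ± 0.28, 7.73-fold, edgeR FDR = 1.59e-06), again with no overlap. Eda2r measured 3.38, 9.62 and 13.9 CPM in UT (log2 fold change 1.81 ± 0.29, 3.51-fold, edgeR FDR = 0.000131). Here UT 2 was within the range of U and the other 10 UT libraries were above it. These 3 calls held with 1 value per mouse.

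In UT, 5 more genes passed the FDR at less than 2-fold, 4 higher and 1 lower. At that FDR with no minimum fold, 33.9% of all genes were higher and 25.6% lower. Mdm2 was 1.67-fold higher (62.0–141 CPM in UT, edgeR FDR = 0.00107) and Sesn2 1.49-fold higher (17.7–58.4 CPM, edgeR FDR = 0.0387), each with all 11 UT libraries above all of U. With 1 value per mouse Sesn2 no longer passed (edgeR FDR = 0.177), and the other 4 genes did. Zmat3, which encodes a zinc finger protein that binds RNA, was 1.78-fold higher (edgeR FDR = 0.00576), with 9 of 11 libraries above U. Aen had a log2 fold change of 0.59 (edgeR FDR = 0.00335), with 10 of 11 above U. Bbc3 was again lower, at 2.38, 4.99 and 7.22 CPM in UT (log2 fold change -0.73 ± 0.21, edgeR FDR = 0.00915), although only 2 UT libraries were below all of U. Ccng1, the gene of cyclin G1, and Phlda3, whose product inhibits the kinase AKT, did not pass. Ccng1 had a log2 fold change of 0.07 (95% interval -0.27 to 0.41) and Phlda3 one of -0.37 (-0.88 to 0.13). CPM is scaled to library totals, while the test uses TMM scaling, which moved the median gene from 0.39 to 0.11 on the log2 scale. On library totals alone Mdm2 and Zmat3 also reached 2-fold, so that 5 of the 10 genes were called, and over all genes 3820 were called higher and 1353 lower rather than 2874 and 1918.

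**Figure D2:**
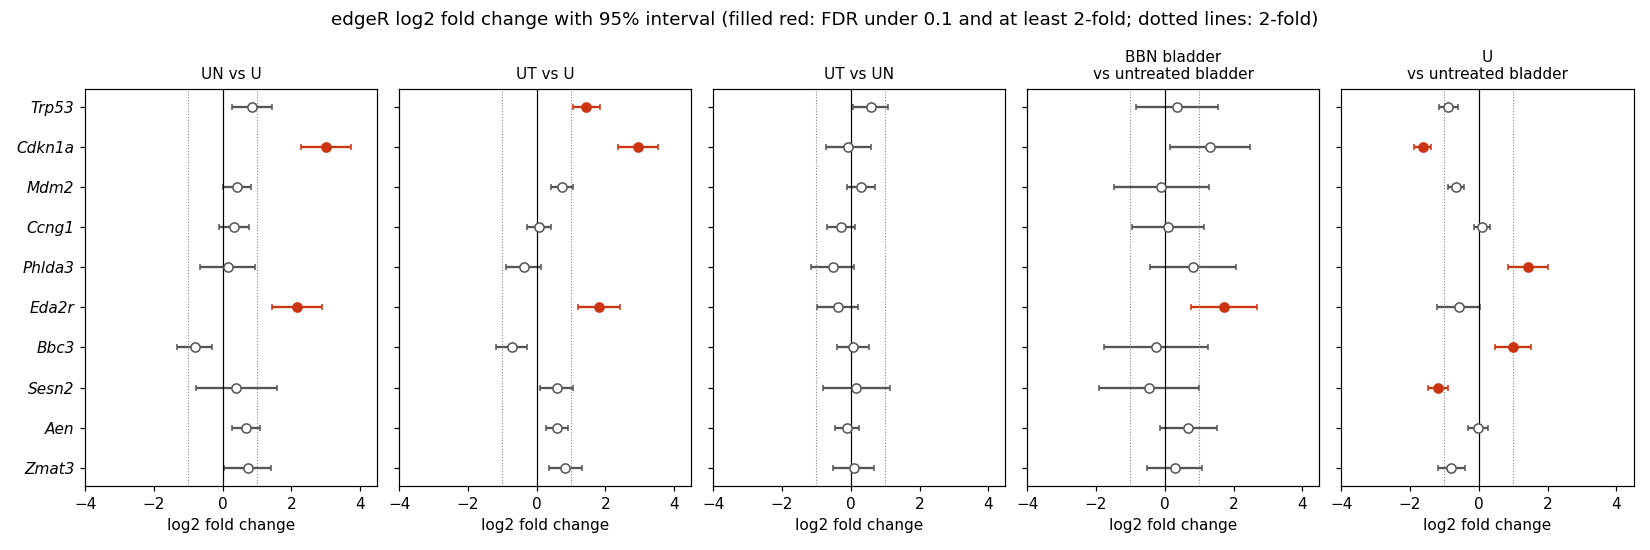
edgeR log2 fold change (horizontal axis) of each of the 10 genes in 5 comparisons, with bars for the 95% interval, red filled points for genes called and dotted lines at 2-fold. Cdkn1a and Eda2r are red in both ureter comparisons with U, and no gene is red in UT against UN.

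The cancer side was next set against the other side of treated mice. None of the 10 genes was called and none of the 15151 genes tested was (0%), although 2806 genes had an unadjusted p under 0.05. DESeq2 called 622 genes and limma's voom with a variance per group 0, and neither called any of the 10. The log2 fold changes of the 10 ran from -0.53 for Phlda3 to 0.58 for Trp53. For Cdkn1a the difference was -0.07 with a 95% interval of -0.72 to 0.58. For Eda2r the interval was -0.97 to 0.20. No member separated the sides completely, and 0.00666% of 15015 genes did, all higher in UT. Trp53 came closest, at 1.49-fold (95% interval of the log2 fold change 0.07 to 1.08, edgeR FDR = 0.233).

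Within the 7 mice that had both sides sequenced, 5 had more Trp53 on the cancer side, with a median log2 ratio of CPM of 0.70. The largest ratio, 2.66, was that of mouse 6, whose UN library was the shallow UN 6. For Cdkn1a this was so in 4 mice, with log2 ratios from -0.86 in mouse 7 to 1.55 in mouse 6. It was so in 4 mice for Eda2r too, and mouse 1 had the lowest ratio (-1.36), with 25.8 CPM in its UN library. Zmat3 was higher in UT in 3 mice only, and the remaining 6 genes in 4 or 5 of 7. With the mouse as a block in the fit, 1 gene of the table was called and none of the 10.

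**Figure D3:**
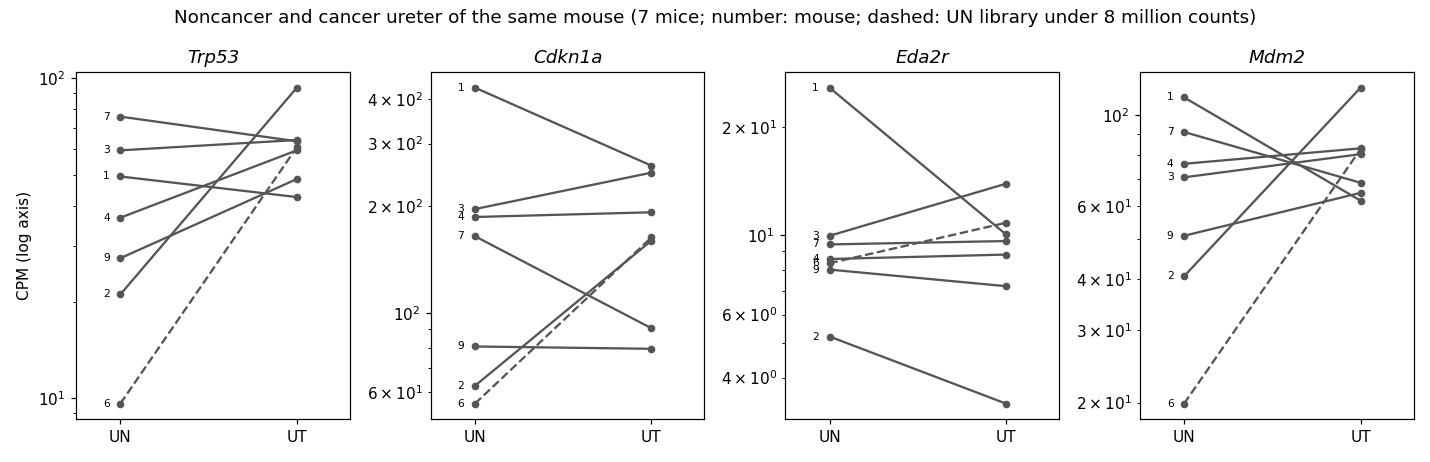
CPM (log axis) of Trp53, Cdkn1a, Eda2r and Mdm2 in the UN and UT libraries of the same 7 mice, 1 line per mouse, numbered at the UN end and dashed for mouse 6. The lines cross for all 4 genes, with Trp53 and Mdm2 higher in UT in 5 mice each and Cdkn1a and Eda2r in 4 each.

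In the bladder, Eda2r alone rose with BBN, 1 of 10, where 7.61% of 18050 genes were called higher and 5.74% lower. It measured 3.76, 3.86 and 5.36 CPM in the 3 untreated bladders and 6.01, 10.3 and 28.3 CPM (lowest, median, highest) in the 10 BBN bladders. No BBN bladder fell within the untreated range, as for 5.3% of 15857 genes that lay above it and 13.5% that lay below, and BBN bladder 8 was the highest. The log2 fold change was 1.73 ± 0.45 (3.31-fold, edgeR FDR = 0.0244). This call was lost when untreated bladder 1 or 2 was left out (log2 fold changes of 1.61 and 1.61) and on library totals alone (edgeR FDR = 0.106). Cdkn1a measured 72.4, 70.9 and 81.3 CPM in the untreated bladders and 23.4, 181 and 416 CPM in BBN bladder. It lay on both sides of the controls, with 7 libraries above them and the 3 shallow libraries below (log2 fold change 1.31 ± 0.54, edgeR FDR = 0.138). The same split of 7 above and 3 below held for Trp53, Phlda3 and Aen.

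Without the 3 shallow bladders, 3 of the 10 genes were called higher, where 11.3% of 15735 genes were called higher and 9.02% lower. Cdkn1a then had a log2 fold change of 1.65 ± 0.32 (3.14-fold, edgeR FDR = 0.00444), Phlda3 one of 1.21 ± 0.35 (2.31-fold, edgeR FDR = 0.0304) and Eda2r one of 1.64 ± 0.45 (3.11-fold, edgeR FDR = 0.0252). Trp53 (1.68-fold, edgeR FDR = 0.0259) and Aen (1.93-fold, edgeR FDR = 0.0265) passed the FDR under 2-fold. These 5 genes lay above the untreated range in all 7 remaining libraries, as 11.6% of 14721 genes did (16.3% lay below it). Mdm2, Ccng1, Bbc3, Sesn2 and Zmat3 did not pass with or without the shallow libraries. BBN bladder 6, whose library name carries a T like those of UT where the other 9 bladders have an N, was grouped by its title, and whether it was tumor tissue is not given there. It was the lowest of the 7 deeper bladders for 7 of the 10 genes, and without it Eda2r kept its call (log2 fold change 1.78, edgeR FDR = 0.0232). BBN bladder 8 was the highest of its group for 8 of the 10 genes, with 857 CPM of Ccng1 against 467 in the next library and 11.4 CPM of Bbc3 against 6.06.

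Whether BBN changed these genes unlike in ureter and bladder was tested as the interaction of treatment and tissue (UN minus U against BBN bladder minus untreated bladder). None of the 10 genes was called, where 1.51% of 18786 genes were called higher and 0.548% lower. For Cdkn1a the difference between the 2 log2 fold changes was 1.68 ± 0.59 (edgeR FDR = 0.2, unadjusted p = 0.00824). It passed without the 4 shallow libraries (1.45, edgeR FDR = 0.0708, where 4.12% of genes were called higher and 2% lower), in DESeq2 (1.60, adjusted p = 0.075), in limma's voom with a variance per group (1.75, adjusted p = 0.00625), within the first range of library codes (2.16, edgeR FDR = 0.0352) and without BBN bladder 8 (1.85). It did not pass with 1 value per mouse (1.64, edgeR FDR = 0.562), on library totals (1.996, edgeR FDR = 0.263), with the mouse as a block, with RNA integrity as a covariate, with RLE scaling, without the count filter or in 1 fit of all 37 libraries. For Eda2r the difference was 0.44 (95% interval -0.60 to 1.48).

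Without BBN, some of these genes already differed between the 2 organs, at shares near those of all genes. Against untreated bladder, U was lower in Cdkn1a and Sesn2 and higher in Phlda3 and Bbc3, 4 of 10, where 15.7% of 15318 genes were called higher and 14.3% lower. Cdkn1a had a log2 fold change of -1.64 ± 0.11 (edgeR FDR = 1.95e-07) and its U libraries all lay below the 3 bladders, at 15.2–22.5 against 70.9–81.3 CPM. Sesn2 measured 10.4–16.7 CPM in U and 40.4, 49.4 and 40.6 CPM in the bladders (log2 fold change -1.19 ± 0.13, edgeR FDR = 8.05e-06). In 1 fit of all 37 libraries the call of Sesn2 was lost (-1.26, edgeR FDR = 0.256). Phlda3 measured 133–297 CPM in U and 92.6, 94.8 and 101 CPM in the bladders (log2 fold change 1.42 ± 0.27, edgeR FDR = 0.000644). Bbc3 was at the 2-fold limit (log2 fold change 1.01 ± 0.24, edgeR FDR = 0.00326) and fell under it in 5 of 9 fits that left out 1 library, in limma's voom, without the count filter, in 1 fit of all 37 libraries and on library totals. Trp53, Mdm2, Zmat3 and Eda2r were lower in U at an FDR under 0.1 and under 2-fold, where 31.7% of all genes were higher and 33% lower at that FDR with no minimum fold. Over 14299 genes, 16.4% lay above all 3 bladders in every U library and 48.9% below, and of the 10 genes 1 lay above (Phlda3) and 6 below (Trp53, Cdkn1a, Mdm2, Ccng1, Sesn2 and Zmat3). In this comparison library totals moved the median gene by most, from -0.02 under TMM to -0.40. On that scale 6 of the 10 genes were called, 1 higher and 5 lower, and 1646 genes of the table were higher and 3379 lower. Ccng1 changed sign, from 0.09 to -0.29. The organs also differed in make-up, as 11 of 12 urothelium markers and 6 of 8 smooth muscle markers were called lower in U. All 5 adipocyte markers were called higher, with sums of 16484–24133 CPM in U and 395–1126 CPM in untreated bladder, and their part in the CPM differences was not tested.

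Ordered by mean CPM over the 5 groups, U was lowest for Trp53, Cdkn1a, Mdm2, Ccng1, Eda2r, Sesn2, Aen and Zmat3. For Bbc3 it was the highest, at 6.86 ± 1.60 CPM (SD, n = 6), and for Phlda3 untreated bladder was the lowest, at 96.2 ± 4.54 CPM (SD, n = 3). Of the 40 steps between neighbouring groups in these orders, only that of Cdkn1a from U (18.5 ± 2.79 CPM, SD, n = 6) to untreated bladder (74.9 ± 5.63 CPM, SD, n = 3) had ranges that did not overlap. At the top, UN (168 ± 130 CPM, SD, n = 7), BBN bladder (170 ± 121 CPM, SD, n = 10) and UT (172 ± 62.8 CPM, SD, n = 11) had overlapping ranges for Cdkn1a. Without the shallow libraries, BBN bladder was at 226 ± 98.6 CPM (SD, n = 7) and UN at 187 ± 132 CPM (SD, n = 6), with ranges that still overlapped that of UT. For Trp53 the order at the top turned with the shallow libraries: UT was at 65.2 ± 18.99 CPM (SD, n = 11), and BBN bladder at 55.1 ± 33.7 CPM (SD, n = 10) with them and 74.4 ± 15.3 CPM (SD, n = 7) without them.

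**Figure D4:**
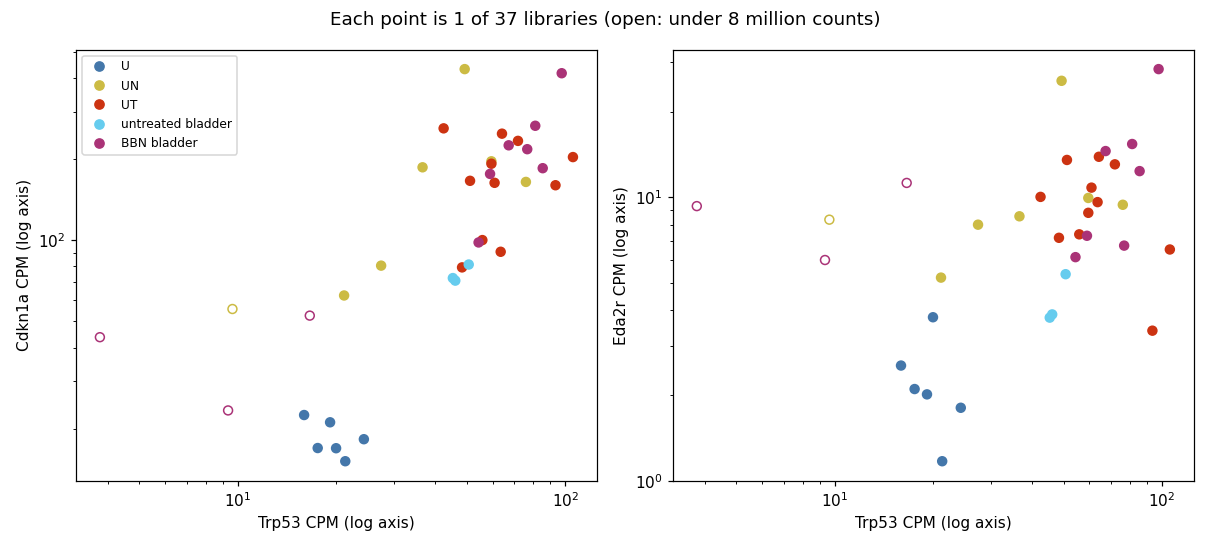
Cdkn1a (left) and Eda2r (right) against Trp53, all in CPM on log axes, with 1 point per library and open points for the 4 shallowest libraries. Untreated bladder holds more Trp53 (45.4–50.7 CPM) than U (15.9–24.3 CPM) yet less Eda2r than most UN libraries, and the open points combine low Trp53 with Eda2r of 6.01 CPM or more.

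The 3 genes most like each of 3 members were named by Pearson's r of log2(CPM + 1) over the 37 libraries, among 14367 genes. For Cdkn1a they were Pqlc3 (0.93), Nlrp10 (0.90) and Psrc1 (0.89), for Trp53 Faap24 (0.96), Mgat2 (0.95) and Shkbp1 (0.94), and for Mdm2 Poldip3, Ssb and Sec23b (each 0.97). The libraries differ in depth and RNA quality, whose part in these values was not tested, so the values describe this set of libraries.

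The wider p53 pathway was described by a list of 40 other known p53 targets. Of the 39 tested in UN against U, 10 were higher and 0 lower (all genes 10.5% and 2.54%), with a median log2 fold change of 0.57 (all genes 0.08). With 1 value per mouse 0 were called by edgeR, where 4 genes of the whole table were, and 8 of 40 were higher by voom (all genes 8.87%). Of 40 tested in UT against U, 16 were higher and 1 lower (all genes 18.7% and 12.5%), with a median of 0.68 (all genes 0.11), and with 1 value per mouse 14 were higher and 0 lower (all genes 15.3% and 9.79%). UT against UN gave 0 of 40 either way. In UT the largest were Gdf15, a secreted stress cytokine (5.58), Psrc1, a spindle protein gene (3.91), the cytokine gene Lif (3.77) and Pmaip1, which encodes the apoptosis inducer NOXA (3.33). Gdf15 held only 0 to 3 counts in the U libraries and 21 to 165 in UT, Psrc1 0 to 7 counts in U and Lif 3.33 to 16, so their fold changes rest on few control reads. Bax, the apoptosis effector, rose in UN (1.20) and UT (1.304), and Sulf2 was the gene lower in UT (-1.01). In UN the largest of those tested were Psrc1 (3.44), Lif (2.54), Serpinb5 (2.54) and Ddit4 (2.53). Gdf15 did not pass the count filter there, at 2 to 128 counts in UN, but was tested with 1 value per mouse (4.79 in edgeR, FDR = 0.205, and 4.54 in voom, FDR = 0.00384). Ddb2, Xpc, Rrm2b, Polk and Ercc5, which serve DNA repair or nucleotide supply, were called in none of the 6 contrasts, with log2 fold changes from -0.61 to 0.73 in UT against U.

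In the bladder 6 of the 40 other targets were higher and 2 lower (all genes 7.61% and 5.74%), with a median of 0.54 (all genes 0.25). Gdf15 (4.03), Psrc1 (2.99), Lif (2.51) and Serpinb5 (1.89) led, and Sulf2 (-1.80) and Pltp (-1.74) were lower. The untreated bladders held 1 to 4 counts of Gdf15, 6 to 14 of Psrc1 and 14.5 to 38 of Lif, so these folds too rest on few control reads. Without the shallow bladders the count was 13 higher and 2 lower (all genes 11.3% and 9.02%). Between untreated organs, 7 of 38 were lower in U and 1 higher (all genes 14.3% and 15.7%), with Serpinb5 (-2.23), Perp (-2.21) and Sfn (-1.98) the largest on the lower side and Pmm1 (2.04) the higher. Serpinb5, Perp and Sfn are genes of stratified epithelia as well as p53 targets. Between untreated organs they were lower in U, as were 11 of 12 urothelium markers. In BBN bladder Serpinb5 rose while 6 of the 12 markers were called lower and 1 higher. The part of tissue make-up in these genes was not tested.

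**Figure D5:**
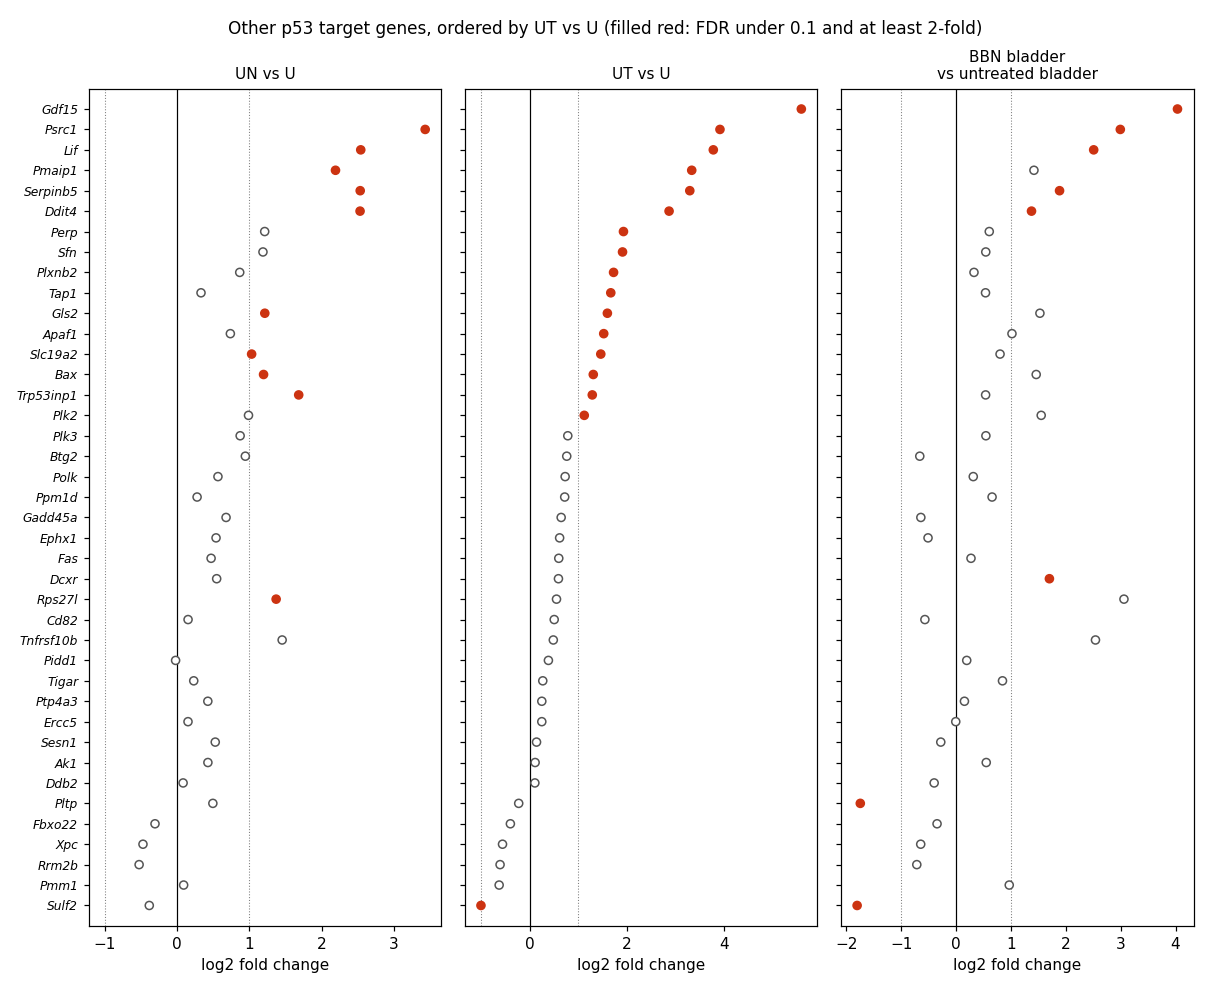
edgeR log2 fold change (horizontal axis) of the 40 other p53 target genes in 3 comparisons, ordered by UT against U, with red filled points for genes called and dotted lines at 2-fold. The 16 genes called higher in UT lead from Gdf15 (5.58) down to Plk2 (1.12), and Sulf2 (-1.01) is the gene called lower.

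The genes of these lists named below and above with values outside the largest 4 per list and direction (Bax, Plk2, the repair genes, Mki67 and E2f1 among them) were chosen after their values were seen. Of 17 regulators and relatives of p53, 15 were tested in UN against U, with 1 called higher and 1 lower (all genes 10.5% and 2.54%). All 17 were tested in UT against U, with 3 higher and 1 lower (all genes 18.7% and 12.5%), and in the bladder, with 3 higher and 1 lower (all genes 7.61% and 5.74%). Between untreated organs 1 of 15 was higher in U and 1 lower (all genes 15.7% and 14.3%). Chek1, a kinase of the DNA damage checkpoint, rose in UN (1.55), UT (2.39) and BBN bladder (2.45). Hipk2, a kinase that phosphorylates p53, fell in UN (-1.37), UT (-2.19) and BBN bladder (-1.23). Cdkn2a, whose locus encodes p16 and the MDM2 inhibitor ARF, and the p53 relative Trp73 rose in UT (5.44 and 5.05) and BBN bladder (6.32 and 5.41). Both were near 0 in untreated tissue, Cdkn2a with 0 to 3 counts in U and 1 in each untreated bladder, and gene counts do not separate p16 from ARF. In UN against U neither passed the count filter. With 1 value per mouse the UN calls of Chek1 and Hipk2 were lost in edgeR (FDR = 0.341 and 0.364), and the UT calls of all 4 genes remained. voom on the same values called Chek1 (1.32, FDR = 0.0642) and Hipk2 (-1.80, FDR = 0.0517) in UN. Cdkn2a and Trp73 passed the count filter on these values, where edgeR called neither (4.03, FDR = 0.221 and 3.74, FDR = 0.258) and voom called both (3.42, FDR = 0.0169 and 3.48, FDR = 0.0286). Trp63, the p53 relative of basal epithelial cells, was lower in U than in untreated bladder (-2.18) and called nowhere else. Mdm4, the other main inhibitor of p53, Atm, Atr and Chek2 were called in no comparison.

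Genes that p21 is known to lower through the DREAM repressor complex, which carry cells through the cell cycle, were the third list. In whole tissue they did not move opposite to Cdkn1a, and whether p21 acted on them was not tested. Of 20 tested, 19 rose in UN against U (median 2.73), 19 in UT against U (median 3.91) and 18 in BBN bladder (median 3.97), and none fell. Over all genes 10.5%, 18.7% and 7.61% were called higher in these comparisons. With 1 value per mouse edgeR called 0 of the 20 higher in UN (all genes 0.0128%) and 19 in UT (all genes 15.3%), and voom 18 in UN (all genes 8.87%). Ccnb1, the mitotic cyclin, rose by log2 fold changes of 3.64 in UN, 4.86 in UT and 5.11 in BBN bladder. Cdk1, its kinase, rose by 3.16, 4.04 and 4.998, and the proliferation marker gene Mki67 by 2.596, 3.95 and 4.15. E2f1 was the gene of this list called in none of the 3. In UT against UN all 20 had positive log2 fold changes with a median of 1.14, and 0 were called. Of the 12 urothelium markers, 4 were called higher and 1 lower in UN (all genes 10.5% and 2.54%), and 6 and 3 in UT (all genes 18.7% and 12.5%). In BBN bladder the counts were 1 and 6 (all genes 7.61% and 5.74%), or 4 and 6 without the 3 shallow libraries (all genes 11.3% and 9.02%). With 1 value per mouse edgeR called 0 of the 12 in UN, and 6 higher and 3 lower in UT (all genes 15.3% and 9.79%). On the same values voom called 2 higher and 2 lower in UN (all genes 8.87% and 6.23%). The basal keratin gene Krt14 rose (6.42 in UN, 7.50 in UT, 8.08 in BBN bladder) and the superficial cell gene Upk1a fell (-2.51, -4.36 and -5.67), although with 1 value per mouse edgeR called neither in UN. In UT, 7 of 8 smooth muscle markers and 5 of 5 adipocyte markers also fell (all genes 12.5%). With 1 value per mouse edgeR called 5 and 0 of these lower (all genes 9.79%) and voom 8 and 5 (all genes 16%). Of the immune markers, 4 of 7 for macrophages and 4 of 4 for neutrophils rose in UT in edgeR (all genes 18.7%). These counts were the same with 1 value per mouse (all genes 15.3%). For T cells 5 of 6 rose in UT, but with 1 value per mouse edgeR called 0 (all genes 15.3%) and voom 1 (all genes 15.8%). In UN the counts were 4 of 7, 4 of 4 and 2 of 6 (all genes 10.5%), and with 1 value per mouse edgeR called none of these 17 and voom 4, 3 and 1 (all genes 8.87%). The 6 markers of kidney tubule summed to 0.191–5.08 CPM in U, and to 1.85, 3.95 and 2150 CPM (lowest, median, highest) in UT, where UT 4 was the library at 2150 and the next was at 10.7. Without UT 4 the UT calls of Trp53, Cdkn1a and Eda2r remained (1.46, 2.94 and 1.83), and Sesn2, of which UT 4 held the most, had a log2 fold change of 0.41 (edgeR FDR = 0.0390). The macrophage markers summed to 298–443 CPM in U, 184–2168 in UN and 522–1660 in UT, and the part of these shifts in the p53 gene levels was not tested.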

How the data were processed

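Libraries were made from total RNA with SMARTer HT and Nextera XT kits, without strand information. The values deposited by the authors were estimated counts per gene (21.1% of nonzero values fractional), with the submitters' processing notes naming GRCm38/mm10, TopHat2 2.1.1 and Cuffdiff 2.2.1; the counter was not given in the sources used here. Counts were rounded and tested with edgeR 4.0.16 (quasi-likelihood F-test, TMM, filterByExpr), each comparison fitted on its own groups, because the spread within U was far smaller than within UN or UT. DESeq2, limma's voom, other scalings and filters, RNA integrity as a covariate, the mouse as a block and left-out libraries were alternatives. Equal numbers in UT and UN mark 1 mouse per the labels, and the deviations of such libraries from group means correlated from -0.18 to 0.69 over 7 mice (median 0.00). In a chi-square test of counts, no pair of libraries in a group differed by as little as sampling noise. How reads shared with the processed pseudogene Trp53-ps were counted was not given in the sources used here, and the antisense neighbour Wrap53 shares no annotated exon with Trp53. Beside the 10 genes, the planned rule named at most the 4 called genes with the largest log2 fold change per list, direction and comparison. It also named the 3 genes most correlated with each of Trp53, Cdkn1a and Mdm2. Other list genes were added after their values were seen, as stated above. The 10 genes and the lists were chosen with earlier results of these data known. Nothing in the labels calls replicates technical, but both ureters of a control mouse entered as separate libraries, so p-values against U are too small.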

Additional observations from a re-analysis of the deposited data

Results flagged for a closer look

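The level of each of the 10 genes was compared within each group of 4 to 10 libraries, 30 sets in all, for a single library far from the rest, and 2 were found, where chance gives about 1 in 20. Eda2r measured 25.8 CPM in UN 1, and the nearest UN library, UN 3, held 9.95 CPM. Without UN 1 the log2 fold change of Eda2r in UN against U was 1.92 and the call remained. Sesn2 measured 10.4 CPM in U 3L, below the nearest library, U 1L, at 14.3 CPM.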

How the results depend on the processing

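The calls of Cdkn1a and Eda2r in UN, and of these and Trp53 in UT, held in each fit that left out 1 library. In UN against U (1941 genes called), 1 value per mouse gave 4 genes and 0 of the 10, and no minimum fold gave 5 of the 10. Single libraries left out gave 1332 to 2489 genes and 2 to 2 of the 10. In UT against U (4792), no minimum fold gave 9135 genes and 8 of the 10, and library totals 5 of the 10; left-out libraries gave 4583 to 5054 and 3 to 3. In UT against UN, 492 genes were called in 1 fit of all 37 libraries, 31 without the count filter, 622 by DESeq2, 1 with the mouse as replicate block and 2 on library totals; left-out libraries gave 0 to 581, the highest without UN 7, and 0 to 0 of the 10. In the bladder (2409), 1 fit of all libraries gave 5662 genes, DESeq2 5799, voom 5670 and the first range of library codes 4401. Of the 10, 2 were called in that single fit, by DESeq2 and by voom. With RNA integrity as a covariate 3 of the 10 were called, and 3249 of all 18050 genes. Without shallow libraries 3 of the 10 were called, and 3193 of all 15735. On library totals 0 of the 10 were called, and 2004 of all 18050. Left-out libraries gave 1024 to 2711 genes (1024, 1075 and 1039 without untreated bladder 1, 2 or 3) and 0 to 2 of the 10, with Cdkn1a added without BBN bladder 1, 3 or 4. In U against untreated bladder (4590), no minimum fold gave 9923 and 8 of the 10, and 1 fit of all libraries 2889 and 2; left-out libraries gave 4473 to 4753 and 3 to 4. For the interaction (387), DESeq2 gave 926, voom 1819, the RNA integrity covariate 718, the replicate block 657, 1 value per mouse 73, leaving out shallow libraries 1009 and the first range of library codes 544. Of the 10, 1 was called by DESeq2, voom, without shallow libraries and in the first range, and left-out libraries gave 149 to 590 and 0 to 1. The mouse block, fitted only for UT against UN, U against untreated bladder and the interaction, changed no call of the 10.

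Signs turned only for values that were not called. In UN against U, Phlda3 was -0.0126 without shallow libraries and -0.0571 to 0.34 with 1 library left out. In UT against UN, Cdkn1a was 0.0217 by voom, 0.0215 with the block and 0.0375 on library totals, Aen 0.13 on library totals, Mdm2 -0.0340 and Sesn2 -0.39 with the RNA integrity covariate, and Sesn2 -0.0530 without shallow libraries. With 1 library left out Cdkn1a ran from -0.18 to 0.26, Bbc3 from -0.0179 to 0.15, Sesn2 from -0.0530 to 0.46 and Zmat3 from -0.0464 to 0.39. In the bladder, Ccng1 was -0.17 by voom, -0.46 in the first range and -0.0519 on library totals, Mdm2 0.21 and 0.33 and Bbc3 0.0235 and 0.0539 with the covariate and without shallow libraries; left-out ranges were -0.34 to 0.0303 for Mdm2 and -0.17 to 0.21 for Ccng1. In U against untreated bladder, Aen was 0.00199 with RLE, 0.00198 by DESeq2, 0.00925 with 1 value per mouse and -0.12 to 0.0644 with 1 library left out, and Ccng1 -0.29 on library totals. For the interaction, Aen was 0.0427 in 1 fit, 0.000479 without the filter, 0.00302 by voom, 0.24 with the block, 0.11 in the first range, 0.28 on library totals and -0.13 to 0.0879 with 1 library left out, Bbc3 was 0.36 with the block and Ccng1 -0.11 without shallow libraries. The cause of these changes was not tested. The 3 untreated bladders, 3 control mice and 4 shallow libraries limit the precision.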
